A study of Mus musculus with 6 samples.

Results

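A set of 10 genes encoding factors that pattern embryonic mesenchyme were followed in whole mouse lungs at the embryonic stage E14.5. They were the homeobox genes Prrx1, Prrx2, Msx1, Meox2 and Barx1, the basic helix-loop-helix genes Twist1 and Tcf21, the odd-skipped zinc finger genes Osr1 and Osr2, and Mab21l2. They were chosen by name, as factors of limb and foregut mesenchyme, and each was read from the array feature annotated with its symbol alone. All 10 were measured, each by 1 feature, so the rule of taking the feature with the highest mean over the 6 arrays had no choice to make. They stand among 19946 genes tested, and no filter on low values was applied. The 3 control lungs carried Shh-Cre, a Cre recombinase made from the Shh locus and active in the lung endoderm, which forms the airway epithelium. The 3 mutant lungs carried Shh-Cre and flox/flox alleles of the forkhead factor genes Foxp1, Foxp2 and Foxp4. One allele is labelled Foxp1 a second time in the mutants' genotype but Foxp2 in the title of the series, which was taken as right. The series design text calls the mutant DKO, usually short for double knockout, so the number of targeted genes is not settled by the labels. Every embryo was at E14.5, on a mixed C57BL/6 and 129X1 background, and carried the Cre allele. No group without Cre and no group with floxed alleles alone was analysed here. The study asked what these Foxp factors do in lung endoderm identity, and the 10 genes were chosen as factors of mesenchyme, the tissue around it. Which cells of these lungs held their RNA was not measured.

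Lung mesenchyme and lung endoderm exchange signals: the epithelium sends Hedgehog, Wnt and FGF ligands outward, and the mesenchyme returns FGF10, BMP and Wnt signals that drive branching. Transcription factors such as those studied here give mesenchyme its regional character, and several are better known from the limb, face, stomach or kidney than from the lung. Prrx1 and Prrx2 mark limb and facial mesenchyme, Twist1 acts in early mesoderm and cranial neural crest, Tcf21 in lung and kidney mesenchyme, Osr1 in intermediate and foregut mesoderm, Osr2 in the palate, Msx1 in tooth, palate and limb buds, Meox2 in somites and vessels, and Barx1 in the mesenchyme of the stomach. Mab21l2 is a member of the male-abnormal-21-like family, needed for the eye and the ventral body wall.

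The DNA just upstream of the 3 genes that were higher in mutant lungs is printed first, because these are the genes the results turn on. RefSeq promoters (GRCm38.p6) were matched by symbol for 8 of the 10 genes, and Osr1 and Osr2 were without an entry. Each run is the 250 bases before the annotated start, 5′ to 3′ along the gene. Capitals mark the homeodomain core TAAT and the TATA-box word TATAAA, either strand (so ATTA and TTTATA too); TAATTA holds 2 overlapping matches of TAAT.
Prrx1, chr1:163313651-163313900, minus strand: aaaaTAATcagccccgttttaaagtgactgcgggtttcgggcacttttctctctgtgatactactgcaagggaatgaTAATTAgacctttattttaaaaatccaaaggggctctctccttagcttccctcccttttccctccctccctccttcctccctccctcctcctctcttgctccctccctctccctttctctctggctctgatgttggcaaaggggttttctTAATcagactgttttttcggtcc
Twist1, chr12:33957421-33957670, plus strand: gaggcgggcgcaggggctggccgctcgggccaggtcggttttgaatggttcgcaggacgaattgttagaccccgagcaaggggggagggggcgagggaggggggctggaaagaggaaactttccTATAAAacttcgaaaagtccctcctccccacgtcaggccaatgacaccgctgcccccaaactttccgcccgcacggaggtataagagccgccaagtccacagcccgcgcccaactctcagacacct
Mab21l2, chr3:86548284-86548533, minus strand: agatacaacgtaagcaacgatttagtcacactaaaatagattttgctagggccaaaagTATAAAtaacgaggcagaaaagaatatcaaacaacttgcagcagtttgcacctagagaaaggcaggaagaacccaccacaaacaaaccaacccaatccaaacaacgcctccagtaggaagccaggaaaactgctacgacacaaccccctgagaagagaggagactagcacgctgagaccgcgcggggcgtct
The stretches differ in base composition and in the words they hold. The Prrx1 stretch is 47.6% G and C with 4 CpG dinucleotides, the Mab21l2 stretch 46.8% with 10, and the Twist1 stretch 62.4% with 18, against medians of 52.4% and 6 over 32851 RefSeq stretches of the same length. TAAT occurs 4 times upstream of Prrx1 and 0 times upstream of Twist1 and of Mab21l2. Upstream of Msx1 and of Meox2 it occurs 1 time each, and 54.9% of all stretches hold it. TATAAA occurs 1 time each upstream of Twist1, Mab21l2 and Meox2, and 12.4% of all stretches hold it. The forkhead word TGTTTAC, on either strand, was found in 0 of the 8 stretches and in 3.17% of all. Its shorter core TGTTT occurs 3 times upstream of Mab21l2 and 1 time upstream of Prrx1, and 46.4% of all stretches hold it. The E-box CANNTG, the word bound by factors such as Twist1 and Tcf21, occurs 1 time each upstream of Msx1 and Meox2 and is in 66.2% of all stretches. A match describes the letters of the window and is not a measured binding site.

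Of the 10 genes, Mab21l2, Prrx1 and Twist1 rose in mutant lungs, 0 fell and 7 did not pass the test. The test was limma's moderated comparison of the 6 arrays, its p-values adjusted over every gene tested by the Benjamini-Hochberg method, with a threshold of 0.05. Of all genes tested, 7.66% passed in either direction, 3.84% as higher and 3.83% as lower in mutants. The rises of Mab21l2 and Prrx1 exceeded 2-fold, which 0.376% of all genes did as called rises, and 1.21% did so past 1.5-fold. The difference, mutant minus control on the log2 scale, was positive for 8 of the 10, and its median over the 10 was 0.36, against -0.01 over all genes. For 4 genes (Mab21l2, Prrx1, Twist1 and Msx1) every mutant lay above every control, which held for 13.4% of all genes, and for 0 of the 10 every mutant lay below, which held for 12.6% (25.9% on either side together). The genes were named with results of this comparison known, so these counts describe the 10 and test nothing about them as a group.

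**Figure D1:**
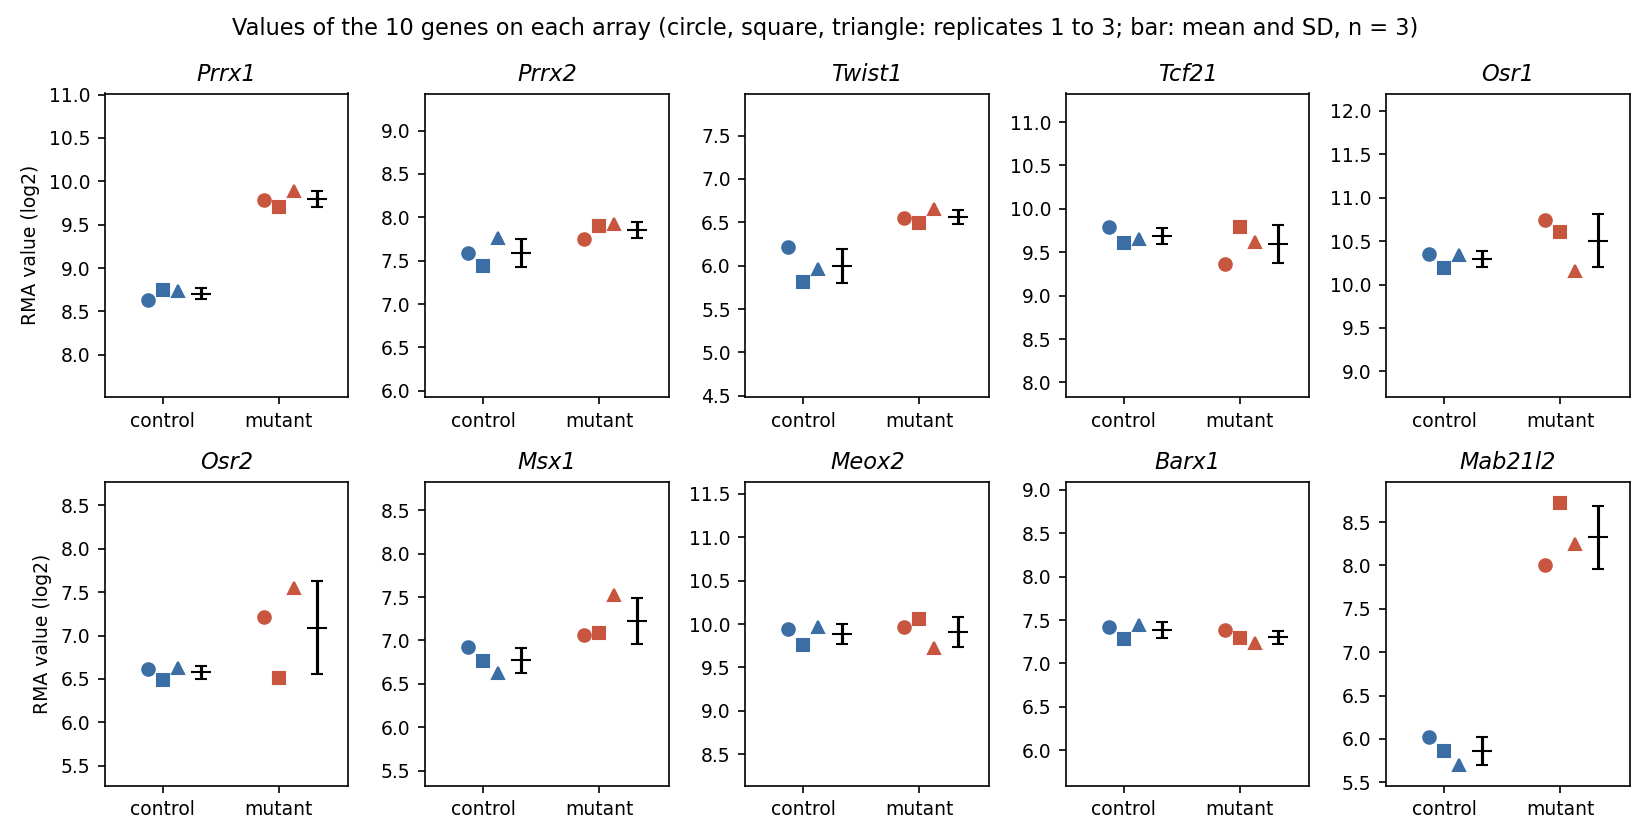
Values of the 10 genes on each array (RMA value, log2), with replicates 1 to 3 as circle, square and triangle. A bar gives the group mean with SD (n = 3). Panels are centred per gene and all span the same log2 range. The mutant points of Mab21l2, Prrx1, Twist1 and Msx1 lie above every control point, while the groups overlap for the other 6 genes.

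The genotype and the tissue were checked first. Foxp2, a targeted gene by the series title, gave 10.52, 10.54 and 10.53 on control arrays 1 to 3. On mutant arrays 1 to 3 it gave 9.59, 9.55 and 9.60, a difference of -0.95 ± 0.05 (SE, limma adjusted p = 4.75e-05). Foxp4 differed by -0.64 ± 0.10 (limma adjusted p = 0.00592), and Foxp1 by -0.31 ± 0.08 (limma adjusted p = 0.0661), below all controls in every mutant without passing the threshold. Which exons the Cre removes is not stated in the labels, so a feature need not lie in the deleted part. Correlations between arrays over all genes were 0.998 within controls, 0.994 to 0.996 within mutants and between 0.988 and 0.991 across groups. The lung markers Tbx4, Tbx5 and Foxf1, all of lung mesenchyme, read above 10 on every array, and the endoderm factor Nkx2-1 gave 10.12, 10.16 and 10.09 on the control arrays, against 8.98, 9.32 and 9.44 on the mutant arrays. Whole-lung RNA does not tell fewer cells of a type from less RNA per cell, nor which cells held the RNA.

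The paired-related homeobox genes Prrx1 and Prrx2 act together in limb and face skeletal precursors. Prrx1 gave 8.63, 8.74 and 8.74 on control arrays 1 to 3, against 9.78, 9.71 and 9.89 on mutant arrays 1 to 3. The mutants formed a narrow group more than 0.9 log2 units above the highest control. Prrx1 was 2.13-fold higher, a log2 difference of 1.09 ± 0.07 (SE; 95% interval 0.93 to 1.25; limma adjusted p = 9.29e-05), from 8.70 ± 0.06 to 9.79 ± 0.09 (SD, n = 3 each). Leaving out any 1 array gave differences between 1.04 and 1.13, all past the threshold. Prrx2 gave 7.58, 7.44 and 7.76 on the control arrays, against 7.75, 7.91 and 7.92 on the mutant arrays. Its groups overlapped, since mutant 1 and control 3 read alike. The Prrx2 difference was 0.27 ± 0.09 (95% interval 0.06 to 0.48; limma adjusted p = 0.138).

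Twist1, a basic helix-loop-helix factor that keeps mesenchymal progenitors from differentiating, was dim on these arrays and rose by less than Prrx1 did. It gave 6.21, 5.82 and 5.96 on the control arrays, against 6.55, 6.49 and 6.65 on the mutant arrays. Every mutant exceeded every control, and the controls were more spread than the mutants (SD 0.20 and 0.08). Twist1 was 1.49-fold higher, 0.57 ± 0.10 on the log2 scale (95% interval 0.34 to 0.80; limma adjusted p = 0.013). Without control 3 the difference was 0.55 and the limma adjusted p 0.0646, and with all features of the array tested the adjusted p was 0.0519, so the call was lost in both. Tcf21, the helix-loop-helix factor of lung mesenchyme and of the epicardium, gave 9.79, 9.61 and 9.66 on the control arrays, against 9.36, 9.80 and 9.62 on the mutant arrays. Mutant 1 held its lowest value and mutant 2 its highest. The Tcf21 difference was -0.09 ± 0.11 (95% interval -0.34 to 0.16; limma adjusted p = 0.737) and took the opposite sign, 0.02, without mutant 1.

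The odd-skipped zinc finger genes varied more among the mutants than among the controls. Osr1, known from kidney and heart formation and from foregut mesoderm, gave 10.35, 10.19 and 10.35 on the control arrays, against 10.74, 10.61 and 10.16 on the mutant arrays. Mutants 1 and 2 lay above the controls and mutant 3 lay below them. Its difference was 0.21 ± 0.14 (95% interval -0.11 to 0.53; limma adjusted p = 0.491). Osr2 gave 6.62, 6.49 and 6.62 on the control arrays, against 7.22, 6.51 and 7.55 on the mutant arrays. Here mutants 1 and 3 were high and mutant 2 lay among the controls, which gave a mutant SD of 0.53 against 0.08. The Osr2 difference was 0.52 ± 0.23 (95% interval -0.01 to 1.04; limma adjusted p = 0.256). Leaving out the low mutant brought each gene past the threshold: Osr1 at 0.38 without mutant 3 (limma adjusted p = 0.0446) and Osr2 at 0.81 without mutant 2 (limma adjusted p = 0.00436). An array left out because it is low favours a rise, so these values are no support for one. Shh, the Hedgehog ligand of the epithelium, read highest among the mutants in mutant 2 (7.89, 9.25 and 8.30 in mutants 1 to 3, 9.34 to 9.53 in controls), the array with the lowest mutant Osr2 value. Shh was looked up after the Osr2 values were seen, and its part in them was not tested.

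Among the remaining homeobox genes, Msx1, a target of BMP signals in tooth and limb, came closest to the threshold. It gave 6.92, 6.76 and 6.63 on the control arrays, against 7.07, 7.08 and 7.53 on the mutant arrays. The groups did not overlap, but the gap between mutant 1 and control 1 was small and mutant 3 stood well above the other mutants. The Msx1 difference was 0.45 ± 0.13 (95% interval 0.15 to 0.76; limma adjusted p = 0.0886), and it passed with array weights at 0.56 (limma adjusted p = 0.0249). Those weights were 0.72, 0.34 and 1.29 for mutants 1 to 3. Weights that favour the highest mutant favour a rise, so this pass is no support for one. Meox2 gave 9.95, 9.75 and 9.96 on the control arrays, against 9.96, 10.06 and 9.72 on the mutant arrays, with both groups covering nearly the same range. Its difference was 0.03 ± 0.10 (95% interval -0.20 to 0.25; limma adjusted p = 0.933), with a sign that changed when control 2 or mutant 2 was left out. Barx1, which in the stomach mesenchyme steers the overlying endoderm to a gastric fate, gave 7.42, 7.28 and 7.45 on the control arrays, against 7.39, 7.29 and 7.24 on the mutant arrays. The Barx1 difference was -0.08 ± 0.07 (95% interval -0.24 to 0.08; limma adjusted p = 0.617), so a rise larger than 0.08 log2 units lies outside the interval.

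Mab21l2 had the largest difference of the 10 and stood at position 5 among the rises of all genes. It gave 6.02, 5.86 and 5.70 on control arrays 1 to 3, against 8.01, 8.72 and 8.25 on mutant arrays 1 to 3. Each control lay below its array's median over all features (6.70 to 6.79) and each mutant well above it. Mab21l2 was 5.52-fold higher, 2.46 ± 0.17 on the log2 scale (95% interval 2.07 to 2.86; limma adjusted p = 0.000139), from 5.86 ± 0.16 to 8.33 ± 0.36 (SD, n = 3 each). With controls this dim, how far background signal enters the fold was not tested. Leaving out any 1 array gave differences between 2.27 and 2.62, all past the threshold.

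**Figure D2:**
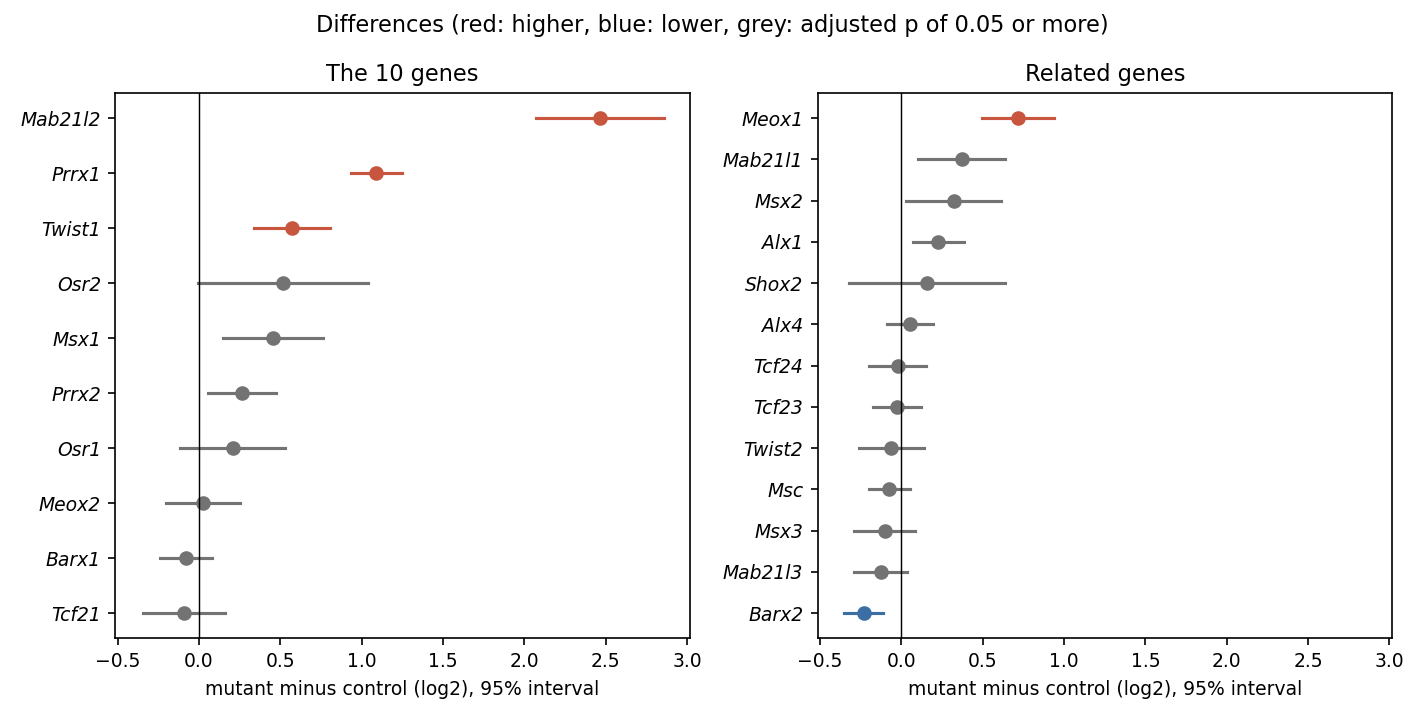
Difference between mutant and control lungs (log2, x axis) with its 95% interval for the 10 genes and for 13 family relatives, coloured by the limma call. Mab21l2 (2.46), Prrx1 (1.09) and Twist1 (0.57) lie to the right among the 10, and Meox1 (0.72) is the called rise among the relatives.

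**Figure D3:**
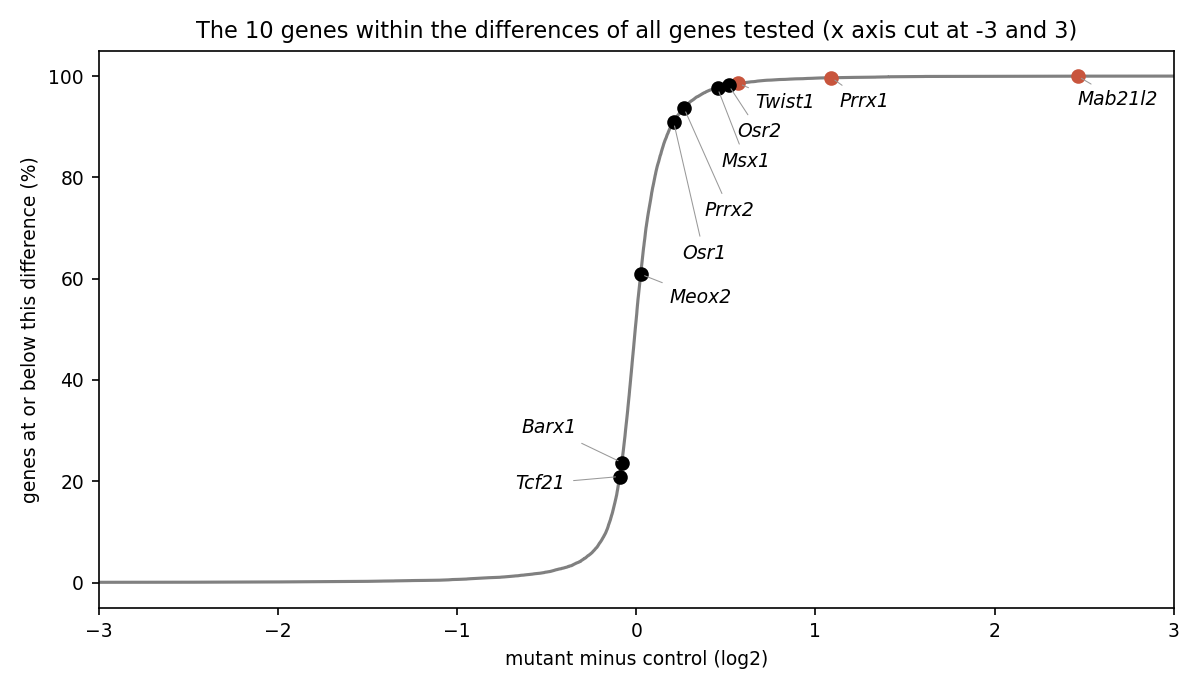
Cumulative percentage of the 19946 genes (y axis) by difference (log2, x axis), with the 10 genes marked on the curve. Mab21l2 and Prrx1 sit at the far upper end, while Meox2 (0.03), Barx1 (-0.08) and Tcf21 (-0.09) sit near the middle.

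The closest family relatives were examined to see whether whole families moved. Of the 13 relatives measured, Meox1 rose, Barx2 fell and 11 missed the threshold (median -0.02). Meox1, a homeobox factor of somites, gave 7.52, 7.49 and 7.60 on the control arrays, against 8.05, 8.27 and 8.43 on the mutant arrays. It was 0.72 ± 0.10 higher (limma adjusted p = 0.00362) and stayed past the threshold with any 1 array left out. Barx2 gave 5.83, 5.82 and 5.83 on the control arrays, against 5.63, 5.57 and 5.57 on the mutant arrays, a dim gene with a small difference of -0.23 ± 0.05 (limma adjusted p = 0.0342). That call was lost without control 1, 2 or 3 (limma adjusted p = 0.121, 0.128 and 0.134) and without mutant 3 (0.089). The other relatives differed by 0.37 (Mab21l1), 0.32 (Msx2), 0.23 (Alx1), 0.16 (Shox2), 0.05 (Alx4), -0.02 (Tcf24), -0.03 (Tcf23), -0.06 (Twist2), -0.07 (Msc), -0.10 (Msx3) and -0.13 (Mab21l3), none past the threshold. Mab21l1 passed without mutant 2 (limma adjusted p = 0.0336) and Msx2 without mutant 1 (limma adjusted p = 0.0371).

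Within families, pairs of relatives were set against each other array by array. The quantity is the log2 value of the first gene minus that of the second, each relative to its control mean, so that it shows unequal change and not a difference in level. Over 7 pairs an exact two-sided permutation test of 3 against 3 arrays cannot give a p below 0.1, and no pair can pass 0.05. The change of Mab21l2 exceeded that of Mab21l1 by 2.09, Prrx1 that of Prrx2 by 0.82, Meox1 that of Meox2 by 0.69 and Twist1 that of Twist2 by 0.63. For Barx1 and Barx2 both differences were negative (-0.08 and -0.23), and the 0.15 between them reflects the more negative value of Barx2. In these 5 pairs every mutant lay above every control (exact permutation p = 0.1, the smallest possible; 0.14 adjusted over the 7 pairs). The gene with the larger difference stands first in each of the 7 pairs, so the direction follows from the order and tells nothing. How often other pairs of genes separate was not computed. Among single genes, 25.9% separated on either side. The pairs Osr2 and Osr1 (0.31, exact permutation p = 0.7) and Msx1 and Msx2 (0.13, exact permutation p = 0.5) overlapped between the groups. For Osr2 and Osr1 the mutants lay on both sides of the controls, with mutant 3 at 1.11 and mutant 2 at -0.38.

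Other transcription factors of lung and gut mesenchyme gave 3 rises and 1 fall among 36 measured of 39 listed, with a median difference of 0.06. Lef1, a nuclear partner of Wnt signalling, rose by 0.61 ± 0.08 (limma adjusted p = 0.00365). Tshz2, a teashirt zinc finger gene, rose by 0.55 ± 0.08 (limma adjusted p = 0.00667). Foxf2, a forkhead factor of gut and lung mesenchyme, rose by 0.46 ± 0.06 (limma adjusted p = 0.00388). These rises were of about the size of that of Twist1 and smaller than those of Prrx1 and Mab21l2. Foxf1, its close relative and a target of Hedgehog signals, fell by 0.38 ± 0.08 (limma adjusted p = 0.0226), a call lost without control 1, 2 or 3 (limma adjusted p = 0.0989, 0.075 and 0.0868).

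Signals that reach mesenchyme were listed because Msx1, Barx1 and others respond to them in other organs. Of 13 ligands, 1 rose and 4 fell while 8 missed the threshold (median -0.21). Fgf10, the mesenchymal ligand that drives branching, rose by 0.77 ± 0.06 (limma adjusted p = 0.000299). Tgfb3 fell by 1.19 ± 0.06 (limma adjusted p = 3.14e-05), the platelet-derived growth factor gene Pdgfa by 0.68 ± 0.08 (limma adjusted p = 0.00229) and Wnt5a by 0.57 ± 0.13 (limma adjusted p = 0.0395). The Wnt5a call was lost without any 1 of the controls (limma adjusted p = 0.119 to 0.138) and without mutant 1 (0.0663). Of 20 receptors and antagonists measured of 21 listed, 5 rose and 4 fell while 11 missed the threshold (median -0.01). The rises were led by 2 secreted antagonists, Fst, which binds activins and BMPs, at 2.84 ± 0.23 (limma adjusted p = 0.000313), and Frzb, which binds Wnt ligands, at 2.23 ± 0.19 (limma adjusted p = 0.000373). The falls were led by Hhip, the Hedgehog-binding antagonist, at -2.32 ± 0.17 (limma adjusted p = 0.000208), and Fgfr2, the epithelial FGF10 receptor, at -1.03 ± 0.07 (limma adjusted p = 0.000122). Of 11 early response genes of BMP signalling, 0 passed in limma after adjustment, and their median difference was 0.01. An unadjusted limma p under 0.05 was found for 4 of them and for 3957 of the 19946 genes tested. These 4 all had positive differences, from 0.20 to 0.39. Msx2 belongs to that list and Msx1, not in it, was 0.45 higher without passing.

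Markers of the cell types a dissected lung can hold were set beside the 10 genes. Of 21 markers of lung mesenchyme and fibroblasts, which include Tcf21, 3 rose and 2 fell while 16 missed the threshold (median 0.01). Their mean log2 value lay between 10.25 and 10.33 in controls and between 10.22 and 10.36 in mutants. Among 12 smooth muscle markers 8 fell and 1 rose (median -1.58), with a mean log2 value of 9.57 to 9.61 in controls and 8.21 to 8.61 in mutants, and summed linear signal of 13084 to 13448 and 6572 to 7619. Among 14 cartilage markers 4 fell and 0 rose (median -0.17). Among 19 markers of lung epithelium 13 fell, 0 rose and 6 did not pass (median -0.84). Their mean log2 value was 9.42 to 9.47 in controls and 8.25 to 8.33 in mutants. Their summed linear signal was 21323 to 22126 in controls and 12397 to 13342 in mutants. The falls were uneven. Sftpc and Cldn18 differed by -5.58 and -4.77, but Cdh1 by -0.19 (limma adjusted p = 0.068) and Foxa1 by -0.18 (limma adjusted p = 0.408). A linear sum weighs bright genes with large falls most. The epithelial and smooth muscle lists thus had a lower mean log2 value and summed signal, with the mesenchymal mean in much the same range. The part of these lower values in the rises of Mab21l2, Prrx1 and Twist1 was not tested.

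Markers of tissues next to the lung were examined in the same way. Of 11 mesothelium markers, 2 rose and 9 did not pass (median 0.05, mean log2 value 8.15 to 8.30 in controls and 8.21 to 8.64 in mutants). Of 14 skeletal muscle markers, 1 fell and 13 did not pass. Stomach and oesophagus epithelium gave 1 rise and 3 falls among 17 markers, while 13 did not pass (median -0.08). Its summed linear signal was 2097 to 3828 in controls and 1118 to 1230 in mutants. With a list median of -0.08, this lower sum does not describe the list as a whole. The part of that lower sum in the rises of the 3 genes was not tested. The 3 falls were led by Cym, a gastric protease gene, at -4.06 ± 0.37 (limma adjusted p = 0.000507). Neural crest and Schwann precursors 2 falls among 8 measured of 12, endothelium 1 rise among 12, and blood and macrophages 3 rises and 1 fall among 10 measured of 13. Of 18 heart muscle markers, 0 passed in limma and 0 had an unadjusted p under 0.05, but mutant 1 stood apart. Relative to the control mean, the median of the heart markers was 1.28 in mutant 1 and -0.19 and -0.17 in mutants 2 and 3, and the summed linear signal spanned 2370 to 10869 in mutants against 4384 to 4541 in controls. Mutant 1 was also high in Tbx18 (7.90, against 6.35 and 6.33 in mutants 2 and 3), a factor of epicardium and mesothelium. The rises did not rest on that array: without mutant 1 the differences were 2.62 for Mab21l2, 1.09 for Prrx1 and 0.58 for Twist1, and with the heart median as a covariate 2.57, 1.09 and 0.57, past the threshold in each case. Since the heart median mainly set mutant 1 apart, the covariate is close to leaving that array out and is hardly a separate check. Array values carry no zeros or detection calls, so no marker can be called absent.

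**Figure D4:**
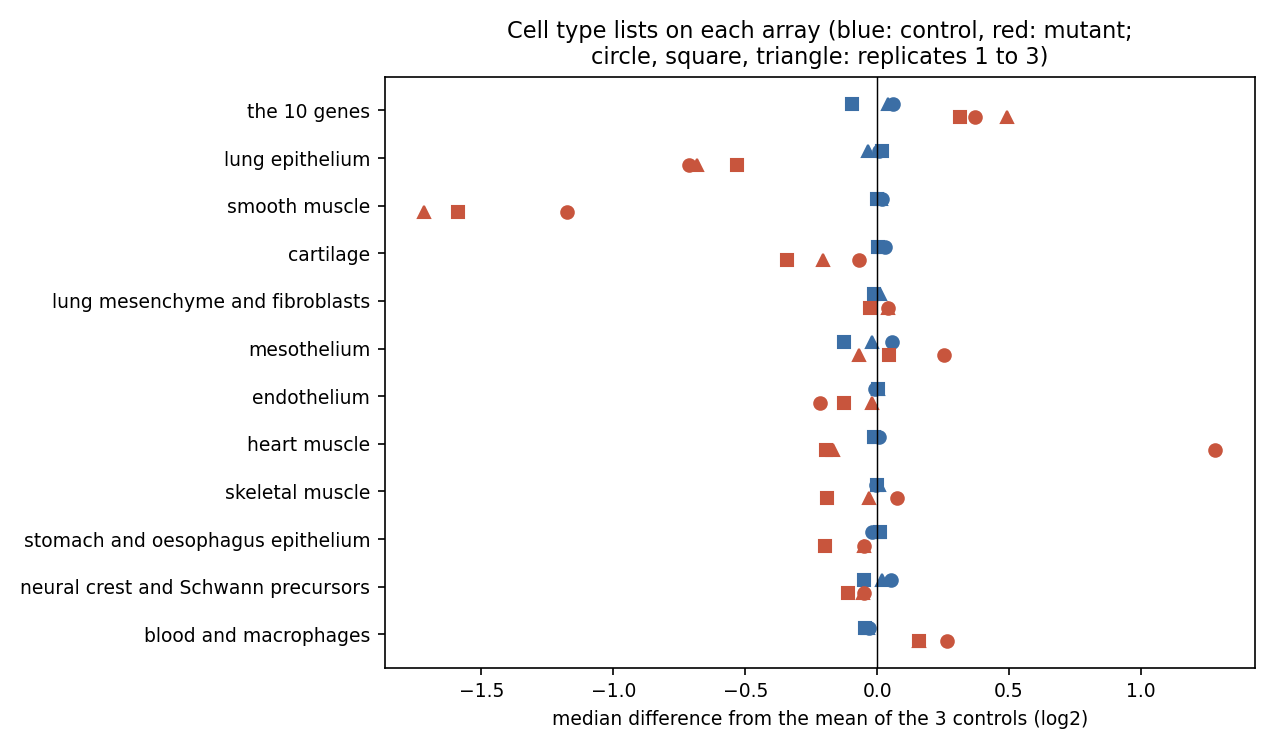
Median difference of each cell type list and of the 10 genes from the control mean (log2, x axis), 1 point per array. The medians of the 10 genes lie at 0.37, 0.31 and 0.49 in mutants 1 to 3 and between -0.09 and 0.06 in controls, while the heart muscle list stands at 1.28 in mutant 1 alone.

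The genes most like the 3 largest risers were found by the root mean square distance between their 6 values, each taken relative to the control mean. For Mab21l2 they were Cpn1 (0.163 log2 units), Cldn8 (0.231) and Gldc (0.238). For Prrx1 they were Pax8 (0.063), Rpp25 (0.107) and Adgrl3 (0.124). For Twist1 they were Fgf8 (0.0655), Zkscan16 (0.0665) and Slc37a2 (0.078). With 6 arrays in 2 groups this measure mostly reads the size of the rise.

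The nearest measured genes on the chromosome mostly did not move with the 10. By the order of genes in GRCm38.p6, Mab21l2 lies within the span of Lrba, which gave 8.68, 8.76 and 8.70 on the control arrays, against 8.64, 8.56 and 8.68 on the mutant arrays. Lrba differed by -0.09 ± 0.06 (limma adjusted p = 0.49), against 2.46 for Mab21l2. On either side, Dclk2 fell by 0.35 (limma adjusted p = 0.039) and Rps3a1 differed by 0.00 (limma adjusted p = 0.999). The neighbours of Prrx1, Mroh9 at -0.12 and Mettl11b at 0.02, and of Twist1, Ferd3l at 0.07 and Hdac9 at 0.14, did not pass. Next to Msx1 the cartilage gene Cytl1 fell by 1.80 (limma adjusted p = 0.000334), and next to Tcf21 the gene Eya4 rose by 0.36 (limma adjusted p = 0.0248), while Msx1 and Tcf21 did not pass. The Dclk2 call was lost without any 1 array except control 1 (limma adjusted p = 0.0556 to 0.134), and the Eya4 call without any 1 array except mutant 2 (0.0567 to 0.112).

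**Figure D5:**
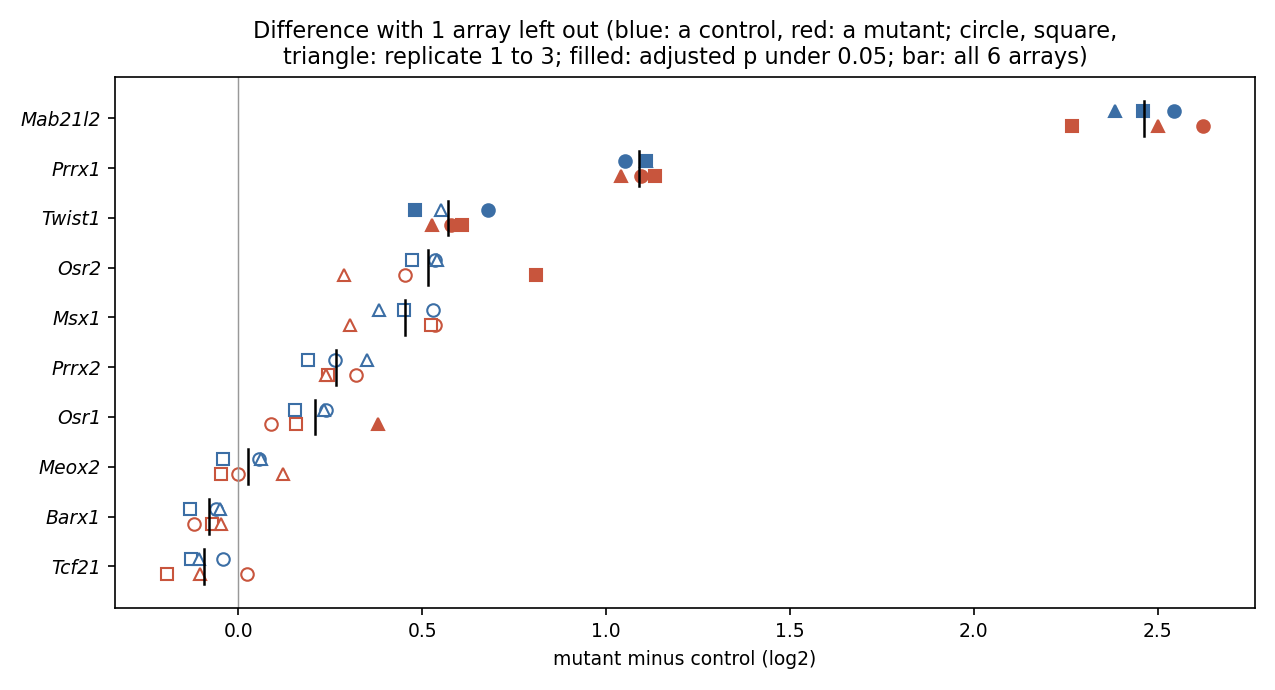
Difference of each of the 10 genes (log2, x axis) with 1 array left out at a time, filled where the limma adjusted p was under 0.05, and the value from all 6 arrays as a bar. Mab21l2 (2.27 to 2.62) and Prrx1 (1.04 to 1.13) stay filled throughout, Twist1 opens without control 3, and Osr1 and Osr2 fill when mutant 3 and mutant 2 are left out.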

How the data were processed

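RNA of 6 whole lungs, 3 control and 3 mutant, was read on single-colour Affymetrix whole-transcript arrays. The authors deposited log2 values from robust multi-array averaging (RMA), which corrects background, scales the arrays jointly and condenses the probes of each feature. The tools oligo, RMA and limma appear, with no version or setting, per the submitters' processing notes. The array medians lay between 6.70 and 6.79. The values carry no counts, so 3 arrays per group set the precision. The 3 samples of a group were taken as separate embryos. The p-values set the difference between groups against the spread between samples, moderated over all genes.

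Of 35556 features, 21797 carry a single gene symbol, 1613 several and 12146 none. A further check by Entrez identifier matched 21698 to RefSeq (GRCm38.p6) and changed 0 symbols. A gene with several features, as 999 had, took the one with the highest mean, which left 19946 genes. The log2 values were compared by a two-sided test of genotype alone (R 4.3.3, limma 3.58.1, functions lmFit and eBayes), with Benjamini-Hochberg adjustment over all genes and a threshold of 0.05. The calculation was tested on simulated data. Alternatives were further scalings, gene filters, feature rules, moderation, array weights (statmod 1.5.0), a replicate block, a heart covariate, other thresholds and each array left out.

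The 10 genes and the 16 lists (261 entries) were chosen with earlier results of these data known. The text names the 10 genes, every measured relative, Foxp1, Foxp2 and Foxp4, of each other list up to 4 genes past the threshold with the largest difference, the 3 nearest genes of the 3 largest risers, and neighbours. Of the cell type lists, counts are given in place of names. Exceptions are Cym, with the largest difference in the stomach and oesophagus list, and the markers named next. The markers Tbx4, Tbx5, Nkx2-1, Tbx18, Sftpc, Cldn18, Cdh1 and Foxa1 and the ligand gene Shh were named after their values were seen.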

Additional observations from a re-analysis of the deposited data

How the results depend on the processing

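Across the 10 genes and the alternatives, 149 differences kept direction and call, 5 came past the threshold, 2 fell short of it and 4 changed sign. The gene filter, feature rules, moderation, replicate block and threshold of 0.1 leave each of these differences as in the main fit. Their direction was thus fixed in advance there, and only the call could change. The number of the 10 called was 3, except with array weights (5, Osr2 and Msx1 added), a threshold of 0.1 (4, Msx1 added), all features tested or a fold of at least 1.5 (2 each, without Twist1), and 1 array left out (2 to 4). Mab21l2 and Prrx1 passed under each of these settings. The array weights were 0.72, 0.34 and 1.29 for mutants 1 to 3, and mutant 3 was the highest mutant for Osr2 and Msx1. The calls added by the weights are therefore no support for a rise of either gene. Over all genes, 1528 were called, 1962 with array weights, 2239 at a threshold of 0.1 and 549 with a fold of at least 1.5. With 1 array left out, 774 to 1745 were called (876, 793 and 774 without control 1, 2 and 3). With all features tested, 1065 of 35556 features were called. The small Meox2 difference was -0.034 with array weights, and -0.047 to 0.12 with 1 array left out (negative without control 2 or mutant 2). That of Tcf21 was -0.19 to 0.022 with 1 array left out (positive without mutant 1). The cause was not tested, beyond fewer arrays in the fits that left one out. The numbers of the replicates gave little sign of pairing (correlations of deviations -0.07, 0.05 and 0.15 for numbers 1 to 3). Of the 3 controls, only control 3 correlated best with the mutant of its own number. Taken from means of 3 arrays, such deviations cannot settle whether the samples were paired. With the replicate block 1137 genes were called, and 3 of the 10, Prrx1, Twist1 and Mab21l2, while of the other genes named as called it ended the calls of Barx2, Foxf1, Wnt5a and Dclk2 (limma adjusted p = 0.105, 0.0573, 0.0533 and 0.0513). The share of rises among calls was 50.1% and lay between 49.0% and 50.6% under other scalings. The 3 arrays per group limit the precision, and the values give no detection limit for genes as dim as Twist1 or, in controls, Mab21l2.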
